A study of Mus musculus with 4 samples.

Results

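The mitochondrial chromosome of the mouse carries 37 genes, and all of them were examined here: 13 mRNAs, 2 rRNAs and 22 tRNAs, chosen because the annotation places them on that chromosome, out of 43629 gene identifiers counted in each library. In the build used, 28 of the genes lie on the + strand and 9 on the - strand. The - strand genes are mt-Nd6, the sole mRNA of that strand, and 8 tRNAs.

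The study sequenced poly(A) RNA of mouse embryonic stem cells (129/Ola, in serum plus LIF) in 4 libraries, of which 2 were Drosha knockout and 2 wild type. DROSHA, a nuclear RNase, releases microRNA hairpins from their primary transcripts. Paired CRISPR/Cas9 cuts removed the proline-rich region of Drosha in the first knockout library (KO1) and its arginine- and serine-rich region in the other (KO2). Both knockouts were at passage 7, and each allele is represented by 1 library. The wild-type libraries are of E14, a common mouse embryonic stem cell line, at passage 33 (WT1) and passage 42 (WT2). Their labels call them re-used, and the knockout titles carry the mark d5, whose meaning is not given. Genotype, passage and the origin of the libraries cannot be told apart. The labels do not tell whether libraries of 1 group stem from separate cultures, and p-values therefore reflect the spread between these samples alone, which may be technical.

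Mitochondrial DNA is transcribed around both strands into long precursors. In these, tRNAs stand between most mRNAs and rRNAs, and cutting out the tRNAs frees the RNAs between them, most of which then receive short poly(A) tails. The mRNAs encode core subunits of the respiratory chain and of ATP synthase, which the cell combines with subunits made from nuclear genes. In human cells the ND6 mRNA is known to carry little or no poly(A) tail, and mature tRNAs have none, so poly(A) libraries are not designed to measure either. Copies of mitochondrial DNA also lie in the nuclear chromosomes, and reads from the original and from a close copy can be hard to place.

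The libraries held 29264632, 42322129, 40139219 and 39657578 counts in the order KO1, KO2, WT1 and WT2, which is the order of all values below. Levels are given in CPM, counts scaled to an equal effective library size by TMM, and as CPM per kilobase of gene where genes are compared. A library with 3 counts of a gene stood at 0.0709 to 0.103 CPM before scaling, and counting intervals cover counting error only. Drosha was at 158, 158, 364 and 357 CPM, lower in both knockouts (log2 fold change -1.19 ± 0.11 SE, edgeR quasi-likelihood fit, Benjamini-Hochberg adjusted p = 0.0482 over all genes). The knockout libraries were far more alike than the wild types, with a chi-square per degree of freedom of 2.26 over 14837 genes against 167 over 14688 genes. All 6 embryonic stem cell markers were present in every library. The 7 feeder fibroblast markers summed to 33.04 and 26.6 CPM in WT1 and WT2 and to 48.6 and 44.8 CPM in KO1 and KO2, mostly Thy1, with 3 and 4 of them at 0 in WT1 and WT2 and none in the knockouts. The 6 endoderm markers summed to 193 and 336 CPM in WT1 and WT2 against 50.2 and 49.3 CPM in KO1 and KO2, and Lama1 and Cubn among them fell. The part of these cells in the values below was not tested. In bulk RNA, fewer cells of a type and less RNA per cell cannot be told apart.

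The following sequences (GRCm38, mm10, from GENCODE M21 transcripts) show how tightly these genes are packed, and include 3 pairs of mRNAs that share bases. A further pair, mt-Atp6 and mt-Co3, shares the base at position 8607 and is not shown. The ends of mt-Nd5 and mt-Nd6 cover the same 14 bases of chromosome M from opposite strands, in capitals, so reads there belong to one gene or the other by strand alone.
mt-Nd5 3′ end, chrM:13536-13565, + strand: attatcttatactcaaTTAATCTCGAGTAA
mt-Nd6 3′ end, chrM:13552-13581, - strand: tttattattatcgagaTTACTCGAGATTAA
The whole of mt-Atp8 is shown because it was the 1 member to pass the test, and its capitals mark the 43 bases that also belong to mt-Atp6.
mt-Atp8, chrM:7766-7969, + strand: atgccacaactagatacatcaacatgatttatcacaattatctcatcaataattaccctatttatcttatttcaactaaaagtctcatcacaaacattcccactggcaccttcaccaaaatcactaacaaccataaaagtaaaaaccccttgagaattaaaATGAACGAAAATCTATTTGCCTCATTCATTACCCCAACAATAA
The first 7 bases of mt-Nd4, in capitals, are the last 7 of mt-Nd4l.
mt-Nd4 start inside mt-Nd4l, chrM:10147-10176, + strand: caaaatctcaacctactacaATGCTAAaaa
The proline tRNA mt-Tp, at the end of the gene order, is shown as the most abundant - strand tRNA by mean CPM. The capitals are the middle 3 bases of its single 7-base loop closed by a perfect 5-base stem, positions 31 to 33, where tRNAs carry the anticodon.
mt-Tp, chrM:15356-15422, - strand: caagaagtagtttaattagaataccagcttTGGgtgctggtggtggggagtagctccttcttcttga

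Mitochondrial genes took a similar part of the counts in knockout and wild-type cells. They held 2.87% of the counts in KO1 (95% Clopper-Pearson interval 2.86 to 2.87), 2.96% in KO2 (2.96 to 2.97), 3.48% in WT1 (3.48 to 3.49) and 2.93% in WT2 (2.92 to 2.93). WT1 stood above the other 3 libraries, which lay close together, and the groups overlapped. The means were 2.91% ± 0.0674 and 3.20% ± 0.392 (SD, n = 2 each), a ratio of 0.909 (exact permutation test, two-sided, p = 0.667, where 0.333 is the smallest that 2 against 2 allows). Without WT1 the log2 ratio moved from -0.14 to -0.01.

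The - strand had a larger share of counts in both knockouts. Its 9 genes held 0.0140% of the library in KO1 (95% Clopper-Pearson interval 0.0136 to 0.0145), 0.0158% in KO2 (0.0155 to 0.0162), 0.00837% in WT1 (0.00809 to 0.00866) and 0.00822% in WT2 (0.00794 to 0.00851). Both knockouts lay above both wild types, the intervals did not meet, and the gap was wider than the spread within either pair. The means were 0.0149% ± 0.00128 and 0.00829% ± 0.000108 (SD, n = 2 each), a ratio of 1.80 with the smallest p the design allows (exact permutation test, two-sided, p = 0.333). As a part of all mitochondrial counts, the - strand made up 0.490% and 0.535% in the knockouts against 0.240% and 0.281% in the wild types. The + strand held 2.85%, 2.94%, 3.47% and 2.92% of the library, with WT1 alone standing high (ratio 0.907, exact permutation p = 0.667).

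**Figure D1:**
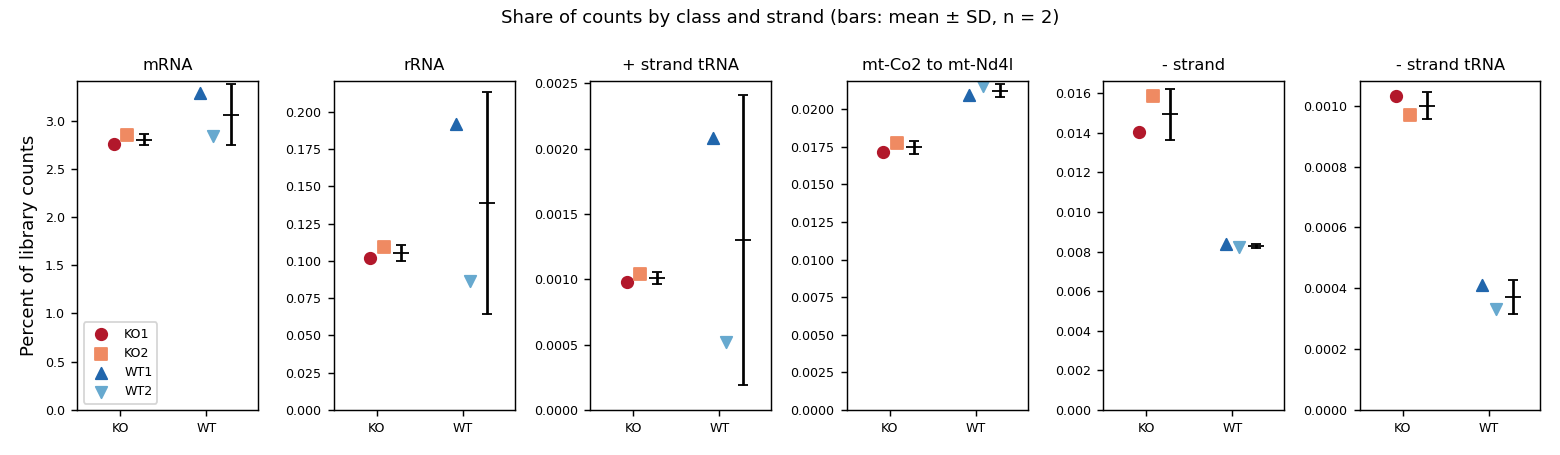
Percent of each library's counts on 6 sets of mitochondrial genes, 1 panel a set with its own axis from 0, with a point for each library and the mean ± SD of each pair (n = 2). The - strand panels place both knockouts above both wild types (0.0140% and 0.0158% against 0.00837% and 0.00822% for all 9 genes), whereas rRNAs and + strand tRNAs place WT1 above and WT2 below the knockouts.

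Most of the - strand counts came from mt-Nd6 (ENSMUSG00000064368, chrM:13552-14070), which encodes a membrane subunit of respiratory complex I. Knockout levels were 123 and 142 CPM, and wild-type levels 80.0 and 86.9 CPM. Both knockouts were above both wild types, as was the case for 36.5% of all genes tested. Means of 133 ± 13.2 and 83.5 ± 4.84 CPM (SD, n = 2 each) gave a log2 fold change of 0.67 ± 0.14 (SE), which did not pass (edgeR adjusted p = 0.0594, unadjusted p = 0.00703). DESeq2 called it (adjusted p = 0.0431), a test that called 12.4% of all genes higher. With GC content and length trends of the libraries removed, the log2 fold change was 1.33 ± 0.13 and again did not pass (edgeR adjusted p = 0.0905).

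Set against the 12 mRNAs of the + strand, mt-Nd6 stood higher. In the main fit the 12 were all below 0, but with the trends removed 9 of them were above 0, as mt-Nd6 was. The log2 fold change of mt-Nd6 in the main fit exceeded the median of the 12, -0.38, by 1.05, and none of the 12 reached it. The same gap was 0.92 to 1.15 over the fit and its 14 alternatives, and none of the 12 exceeded mt-Nd6 in any of them. Settings that change library scaling alone shift all genes by nearly the same amount, so they could hardly move this gap. The gap itself had no test of its own. Its nearest neighbours show the difference per length: mt-Nd6 stood at 7.67% and 8.56% of the level of mt-Cytb per kilobase in the knockouts, and at 3.74% and 3.42% in the wild types. Against mt-Nd5, with which it shares its last 14 bases, it stood at 23.1% and 25.1% in the knockouts, 9.61% in WT1 and 21.5% in WT2, so there WT2 lay near the knockouts.

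The 8 tRNAs of the - strand were low in every library. Together they held 302, 410, 165 and 131 counts, or 0.00103%, 0.000969%, 0.000411% and 0.000330% of the library. Both knockouts were again higher, at a ratio of means of 2.70 (exact permutation test, two-sided, p = 0.333, the smallest possible). The proline tRNA mt-Tp held most of these counts, 6.16 and 5.88 CPM for KO1 and KO2 against 2.15 and 2.86 CPM for WT1 and WT2, with no overlap. Its means were 6.02 ± 0.195 and 2.51 ± 0.499 CPM (SD, n = 2 each). The log2 fold change of 1.26 ± 0.26 did not pass with edgeR (adjusted p = 0.0587), whereas DESeq2 called it (adjusted p = 0.0107).

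The glutamine tRNA mt-Tq stood at 2.69, 2.28, 1.20 and 0.583 CPM. Both knockouts were higher, and WT2 was well below WT1 (log2 ratio -0.98, beside a log2 fold change of 1.47 ± 0.45 between the groups, edgeR adjusted p = 0.0989). The glutamate tRNA mt-Te, which follows mt-Nd6 on the chromosome, had 8, 11, 1 and 3 counts, again without overlap (2.19 ± 0.67, adjusted p = 0.0988 with edgeR). It passed the expression filter only through its knockout counts. Counts for the alanine tRNA mt-Ta were 8, 10, 13 and 1, so WT1 was highest and the groups overlapped. The other 4 did not pass the expression filter: the tRNAs for asparagine (mt-Tn, 5, 5, 4 and 2 counts), cysteine (mt-Tc, 6, 12, 7 and 0), tyrosine (mt-Ty, 2, 9, 5 and 0) and serine (mt-Ts1, 0, 1, 1 and 1). Differences among such counts were not detectable at this depth.

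Of the 9 genes of the - strand, 5 were tested, and 0 passed at an adjusted p under 0.05 with edgeR, where 3.51% of all genes tested passed as higher. At an unadjusted p under 0.05, 4 of the 5 were higher, against 19.4% of all genes. Among these 4, mt-Te passed the expression filter only through its knockout counts (8 and 11, against 1 and 3 in the wild types). Its direction was therefore set by the filter, here and in the signs below. DESeq2 called 2 higher, mt-Nd6 and mt-Tp. All 5 fitted changes were above 0, and stayed so with the trends removed, but that of mt-Ta turned to -0.43 without WT2.

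On the + strand, 19 of 28 genes were tested, and 1 of them, mt-Atp8, fell, where 1.94% of all genes tested passed as lower. Fitted log2 fold changes ran from -1.42 to -0.14 with a median of -0.52, beside -0.02 over all genes tested. All 19 were below 0, but with the GC content and length trends removed 12 of them were above 0 and the median was 0.18, so the sign for most of the strand depended on that choice. In 11 of the 19 both knockouts lay below both wild types, against 34.8% of all genes, and in 8 the groups overlapped. At an unadjusted p under 0.05, 5 of the 19 were lower, against 17.7% of all genes. DESeq2 called 2 lower, mt-Atp8 and mt-Nd3, where it called 10.3% of all genes lower. Over both strands, edgeR thus called 1 of 24 tested members, beside 5.45% of all genes in either direction, and DESeq2 called 4, beside 22.7%.

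**Figure D2:**
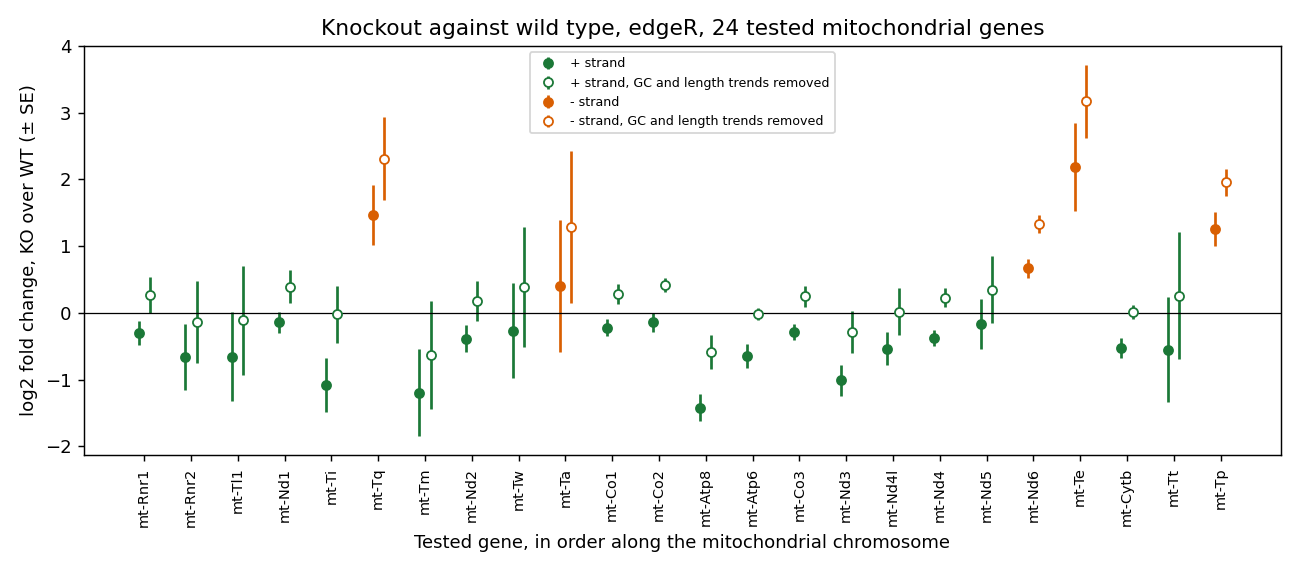
Log2 fold change (knockout over wild type, ± SE) of the 24 tested mitochondrial genes in chromosome order, in green for the + strand and orange for the - strand. Filled points are the edgeR fit, in which + strand genes run from -1.42 to -0.14 and - strand genes from 0.41 to 2.19, and open points the fit with GC content and length trends removed, where 12 of the 19 + strand genes turn above 0.

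The gene mt-Atp8 (ENSMUSG00000064356, chrM:7766-7969) encodes a small membrane subunit of ATP synthase. Knockout levels were 5.90 and 7.51 CPM, and wild-type levels 18.7 and 17.1 CPM. Both knockouts were far below both wild types. Means of 6.70 ± 1.14 and 17.9 ± 1.12 CPM (SD, n = 2 each) gave a log2 fold change of -1.42 ± 0.21, which passed narrowly (edgeR adjusted p = 0.0482). The call ended at a similar change with library totals (-1.28, adjusted p = 0.0568 with edgeR) and with upper-quartile scaling (-1.38, 0.0521). It also ended without KO1 (-1.25) and without KO2 (-1.59), where the spread comes from the wild types alone. Without WT1 (-1.33) and without WT2 (-1.45) the spread comes from the close knockout pair alone, so keeping the call there says little. With the trends removed the change was smaller, -0.58 ± 0.26 (edgeR adjusted p = 0.248). Under library totals, upper-quartile scaling, removed trends and without KO1, edgeR called no gene of any kind.

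Its overlapping partner mt-Atp6 encodes the proton channel subunit of ATP synthase and stood at 42.5, 44.7, 59.1 and 76.9 CPM. Both knockouts were lower, and WT2 was highest (log2 fold change -0.64 ± 0.18, edgeR adjusted p = 0.0864, and -0.02 with the trends removed). Per kilobase, mt-Atp8 stood at 46.3% and 56.0% of mt-Atp6 in the knockouts but at 106% and 74.4% in the wild types. The proportion was lower in both knockouts, but the wild types differed from each other by more than KO2 differed from WT2. This difference in proportion was not tested. The 43 bases in the capitals above belong to both genes, and the sources used here do not give the counting rule for such bases.

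Genes for the core of cytochrome c oxidase, complex IV, had small fitted changes, and none passed with edgeR. Its largest subunit, from mt-Co1 (chrM:5328-6872), was the most abundant member at 11850, 12270, 13680 and 14480 CPM. Both knockouts were lower by a small amount (log2 fold change -0.22 ± 0.13, edgeR adjusted p = 0.265). The copper-binding subunit gene mt-Co2 stood at 63.0, 64.8, 64.1 and 76.8 CPM, with WT1 between the knockouts. The third core subunit, from mt-Co3, stood at 43.9, 44.5, 53.2 and 54.0 CPM, with both knockouts lower (-0.28 ± 0.12, adjusted p = 0.170 with edgeR). With the trends removed the signs of all 3 turned, to 0.28, 0.42 and 0.25.

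For mt-Cytb, the cytochrome b gene of complex III, levels were 3541, 3655, 4717 and 5606 CPM. Both knockouts were lower and the wild types differed (log2 fold change -0.52 ± 0.15, edgeR adjusted p = 0.0886, and 0.01 with the trends removed). The 6 complex I genes of the + strand ran from -1.01 to -0.14, and none of them passed with edgeR. The largest of these fitted changes was in mt-Nd3, at 4.02, 4.64, 9.74 and 7.69 CPM, where the knockouts lay lower without overlap (-1.01 ± 0.24, edgeR adjusted p = 0.0684, DESeq2 adjusted p = 0.0169). With the counts of nuclear copies added, mt-Nd3 was at -0.48 and mt-Nd4l, at -0.60, was lower than it. Levels of mt-Nd4 were 1505, 1546, 1932 and 2017 CPM, with each pair close together and the knockouts lower (-0.37 ± 0.12, adjusted p = 0.105 with edgeR). Those of mt-Nd4l, whose end overlaps the start of mt-Nd4, were 3.60, 3.49, 5.84 and 4.44 CPM (-0.54 ± 0.25). The knockouts were lower in mt-Nd2 as well, at 2186, 2261, 3370 and 2436 CPM (-0.38 ± 0.20), whereas in mt-Nd1, at 4949, 5144, 6134 and 4985 CPM, WT2 fell between the knockouts (-0.14 ± 0.16). Signs of mt-Nd1, mt-Nd2, mt-Nd4, mt-Nd4l and mt-Nd5 turned with the trends removed.

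In a set of + strand RNAs the wild types lay on either side of the knockouts. The large rRNA gene mt-Rnr2 (chrM:1094-2675) stood at 559 CPM in KO1, 605 CPM in KO2, 1335 CPM in WT1 and 504 CPM in WT2, a log2 ratio of -1.41 for WT2 over WT1. WT1 was by far the highest and WT2 the lowest (log2 fold change -0.66 ± 0.49, edgeR adjusted p = 0.369). Without WT1 its change turned to 0.21. The same order held in mt-Nd5, a complex I proton pump subunit, at 1877, 1986, 2927 and 1419 CPM (-0.17 ± 0.37, adjusted p = 0.762 with edgeR, and 0.44 without WT1). The small rRNA gene mt-Rnr1, which lies just before mt-Rnr2 with only mt-Tv between, spread less, at 407, 436, 590 and 446 CPM, and both knockouts were lower (-0.30 ± 0.18, edgeR adjusted p = 0.286).

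Several + strand tRNAs showed the wild types apart in the same way. The leucine tRNA mt-Tl1, which follows mt-Rnr2, stood at 2.63, 2.52, 6.39 and 1.72 CPM. The tryptophan tRNA mt-Tw stood at 4.70, 5.27, 9.69 and 2.28 CPM, and the threonine tRNA mt-Tt at 1.17, 1.44, 3.16 and 0.667 CPM. In each of the 3, WT1 was highest, WT2 lowest and the knockouts lay close together between them, and each fitted change turned above 0 without WT1. In the methionine tRNA mt-Tm, at 0.421, 0.316, 1.25 and 0.417 CPM, WT1 alone was high. The isoleucine tRNA mt-Ti, at 0.259, 0.180, 0.451 and 0.472 CPM, was the 1 tested + strand tRNA in which the knockouts lay lower without overlap (log2 fold change -1.08 ± 0.41, edgeR adjusted p = 0.141). Together the 14 + strand tRNAs held 286, 441, 836 and 205 counts.

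Of the remaining 9 tRNAs of the + strand, mt-Tf, mt-Tk, mt-Tg, mt-Tr and mt-Th had no count in any library, which allows up to 3 counts in each. The other 4, mt-Tv, mt-Td, mt-Ts2 and mt-Tl2, had 5 counts or fewer in every library. Between wild types, log2 ratios of WT2 over WT1 reached 2.23 in size over the tested members, against 0.42 for KO1 over KO2. In mt-Co1, mt-Nd4 and mt-Co3 the wild types were close, at 0.08, 0.06 and 0.02. With either wild-type library left out, the spread is taken from the knockout pair alone. With either knockout library left out, it is taken from the wild-type pair alone. Calls of members from such fits are therefore not comparable with those of the main fit.

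Levels along the chromosome differed by far more than the groups did. Per kilobase, mt-Co1 had the highest mean over the 4 libraries at 8459 CPM, followed by mt-Nd1 at 5541 CPM, and the libraries of these genes did not overlap. Next came mt-Cytb at 3828 CPM and mt-Nd2 at 2469 CPM, then mt-Nd4 at 1270 CPM and mt-Nd5 at 1125 CPM, where the neighbours in each pair overlapped. Both rRNAs, at 492 and 475 CPM per kilobase, overlapped as well, and mt-Nd6 stood at 208 CPM. The stretch from mt-Co2 to mt-Nd4l, between mt-Co1 and mt-Nd4, was the lowest among the mRNAs: mt-Co2 stood at 98.2, mt-Atp6 at 82.0, mt-Co3 at 62.4, mt-Atp8 at 60.4, mt-Nd3 at 18.8 and mt-Nd4l at 14.6 CPM per kilobase. Per kilobase, mt-Co2 reached 1.06% to 1.20% of its neighbour mt-Co1 in every library.

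**Figure D3:**
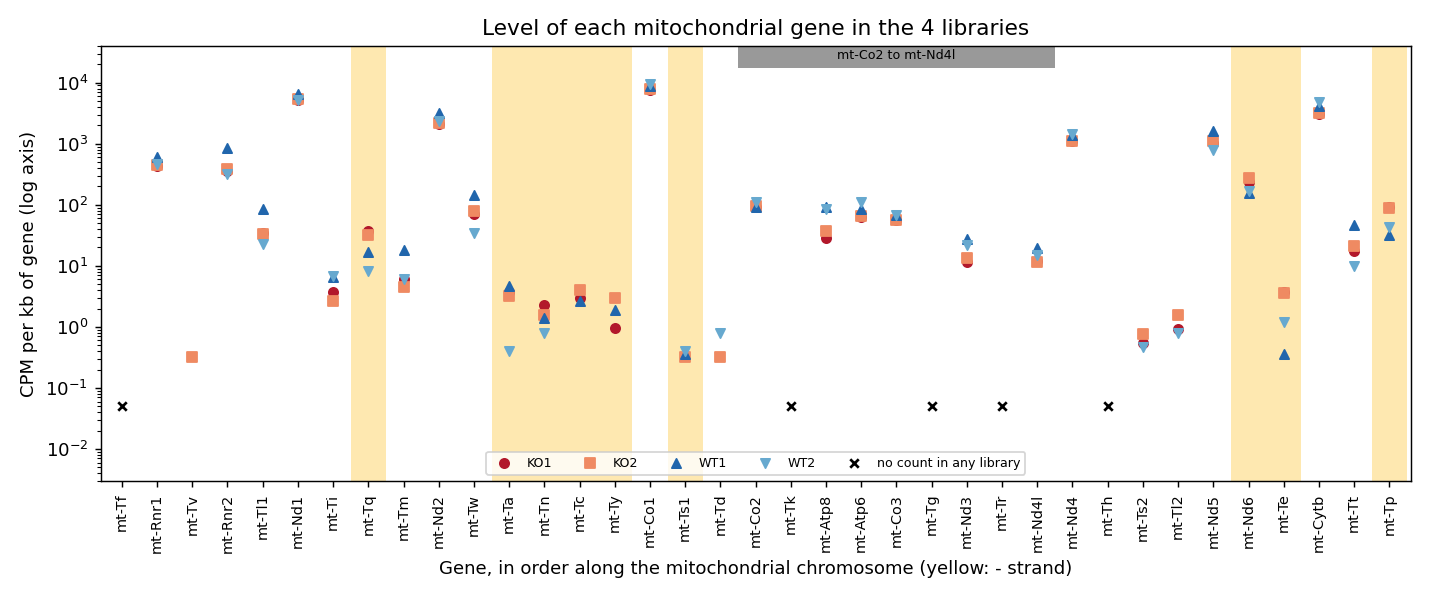
CPM per kilobase of each of the 37 genes in chromosome order on a log axis, with a point for each library that had a count, a cross for the 5 genes without any count (placed below the scale of the data) and yellow bands for the - strand. The grey bar marks mt-Co2 to mt-Nd4l, whose 6 mRNAs average 14.6 to 98.2 CPM per kilobase between mt-Co1 at 8459 and mt-Nd4 at 1270.

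The same 6-gene stretch is where nuclear copies of the mitochondrial sequence are annotated most fully. Of the 50-base stretches of each gene, 100% of those of mt-Co2, 99.9% of mt-Co3, 99.5% of mt-Atp6, 98.8% of mt-Nd4l and 98.0% of mt-Nd3 also occur in an annotated nuclear gene. The share was 62.2% for mt-Nd4, 51.1% for mt-Co1, 8.19% for mt-Nd2, 7.61% for mt-Nd5 and 1.04% for mt-Rnr2. It was 0 for mt-Nd1, mt-Cytb, mt-Rnr1, mt-Nd6 and mt-Atp8. With 1 mismatch allowed, it was 18.5% for mt-Nd6, 8.04% for mt-Cytb, 72.7% for mt-Co1 and 20.3% for mt-Nd5. It stayed at 0 for mt-Nd1, mt-Rnr1 and mt-Atp8. Thus the 5 mRNAs with nearly complete copies were all among the 6 lowest, but mt-Atp8, with no 50-base stretch in an annotated copy, was as low. The 43 bases that mt-Atp8 shares with mt-Atp6 are shorter than such a stretch, so its share of 0 does not cover them. On chromosome 1, the copies of mt-Co2 and mt-Atp6 lie 233 bases apart, exactly the 233 bases between the matching parts of those genes around mt-Atp8, and the sequence between them was not examined. How reads with several matches were counted was not given in the sources used here, and its part in these levels was not tested.

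**Figure D4:**
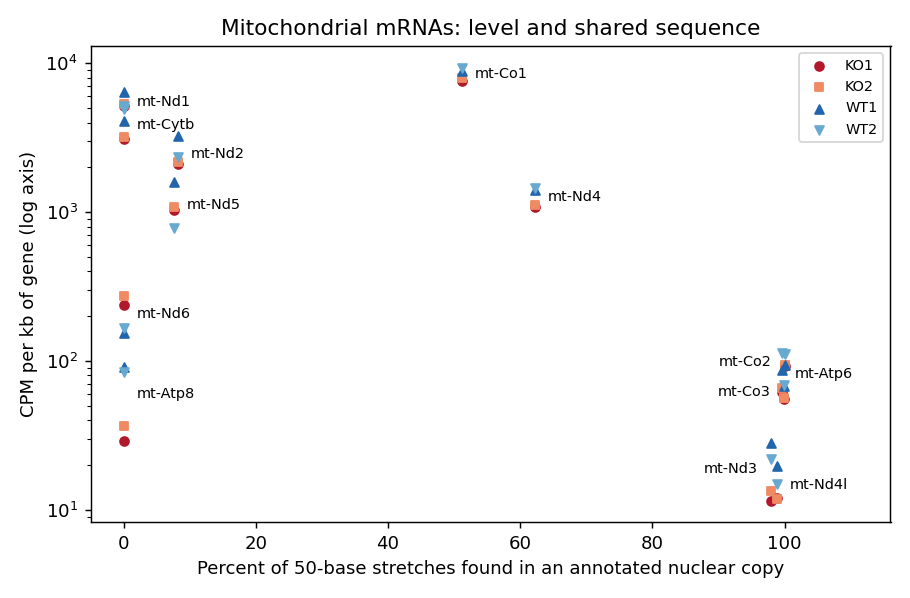
CPM per kilobase (log axis) of the 13 mRNAs in each library against the percent of their 50-base stretches that occur in an annotated nuclear copy. The 5 genes at 98.0% to 100% average 14.6 to 98.2 CPM per kilobase, mt-Co1 at 51.1% is the highest of all, and mt-Atp8 at 0% lies at 60.4.

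At least 14 annotated nuclear genes shared a 50-base stretch with a member, and 10 of those listed, all annotated as pseudogenes, averaged at least 10 counts. The list holds only genes counted in these libraries and does not cover every nuclear chromosome. A block of 7 lies on chromosome 1 (chr1:24611535-24616197, 4663 bases), and 5 of these carry 0 mismatches to the mitochondrial gene. Counts assigned to the block summed to 329, 348, 406 and 455 CPM. Those of the 5 genes with nearly complete copies summed to 157, 162, 192 and 220 CPM. The sums cover unlike sets, since the block also holds copies of mt-Co1 and mt-Nd4, which the second sum leaves out. Both sums were lower in both knockouts, and in neither did the groups overlap. These sums were taken without the trends removed. For mt-Co2, the chromosome 1 copy Gm28661 held 129%, 135%, 141% and 136% of the level of the mitochondrial gene per kilobase, with little difference between libraries. For mt-Nd3, by contrast, the copy Gm28438 held 195% and 212% in the knockouts against 99.8% and 124% in the wild types. Adding the counts of the listed copies to their mitochondrial gene, an alternative chosen after seeing the data, moved no member across the threshold and turned no sign. It did change sizes, with mt-Nd3 going from -1.01 to -0.48 and mt-Co2 from -0.14 to -0.36.

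A second block of 3 copies, on chromosome 2 (chr2:22587291-22590533), differs from the mitochondrial sequence at scattered bases, which separate original and copy in part only. Stretches of 50 bases identical to the mitochondrial gene still number 224 in Gm13341, 411 in Gm13340 and 81 in Gm13339. The stretch below shows mt-Co2, its identical chromosome 1 copy and its chromosome 2 copy Gm13341, with capitals at the 6 bases where the last differs.
mt-Co2, chrM:7457-7516, + strand: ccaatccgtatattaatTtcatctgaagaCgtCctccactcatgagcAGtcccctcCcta
Gm28661, chr1:24615062-24615121, - strand: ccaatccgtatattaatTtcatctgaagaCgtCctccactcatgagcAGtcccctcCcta
Gm13341, chr2:22587471-22587530, - strand: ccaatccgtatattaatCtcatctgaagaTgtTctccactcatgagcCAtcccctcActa
Over its whole length Gm13341 had 16 mismatches in 672 aligned bases. Knockout levels were 4.51 and 5.55 CPM, and wild-type levels 27.0 and 29.2 CPM. Both knockouts were far lower, and each pair was close (log2 fold change -2.48 ± 0.19, edgeR adjusted p = 0.0482, and -1.93 ± 0.18 with the trends removed, adjusted p = 0.0905).

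Its neighbour Gm13340, a copy of mt-Co1 with 37 mismatches in 1545 bases, fell as well. Levels were 14.4 and 15.6 CPM for KO1 and KO2 against 42.9 and 41.8 CPM for WT1 and WT2 (-1.50 ± 0.14, edgeR adjusted p = 0.0482). With the trends removed, Gm13340 was at -0.998 ± 0.191 (edgeR adjusted p = 0.102). Levels of the third, Gm13339, a copy of part of mt-Nd2, were 0.972, 0.902, 2.58 and 2.08 CPM (-1.31 ± 0.30, edgeR adjusted p = 0.0648). Its log2 fold change was -0.67 with the trends removed. The calls for Gm13341 and Gm13340, and those of the nuclear genes below, ended in 5 settings under which edgeR called no gene at all: without KO1 (1760 genes at an unadjusted p under 0.05), with library totals (6116), with upper-quartile scaling (6267), with the trends removed (4305) and with the trends removed and the replicate block (3263). Per kilobase, Gm13341 stood at 7.28% and 8.71% of mt-Co2 in the knockouts and at 42.9% and 38.7% in the wild types, so original and copy moved by unequal amounts. Gm13340 stood at 0.121% and 0.127% of mt-Co1 against 0.314% and 0.289%. On chromosome 1, none of the 7 copies passed with edgeR. Fitted changes there were -0.70 ± 0.16 for Gm10925 (mt-Atp6), -0.69 ± 0.17 for Gm28439 (mt-Nd4) and -0.64 ± 0.26 for Gm10222 (mt-Nd4l). They were -0.21 ± 0.14 for Gm28661, -0.14 ± 0.15 for Gm29216 (mt-Co1), -0.12 ± 0.21 for Gm28438 (mt-Nd3) and -0.11 ± 0.12 for Gm28437 (mt-Co3). With the trends removed, Gm28661, Gm29216, Gm28438 and Gm28437 turned above 0, to 0.34, 0.40, 0.61 and 0.42. Gm10925, Gm28439 and Gm10222 moved to -0.085, -0.099 and -0.108.

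**Figure D5:**
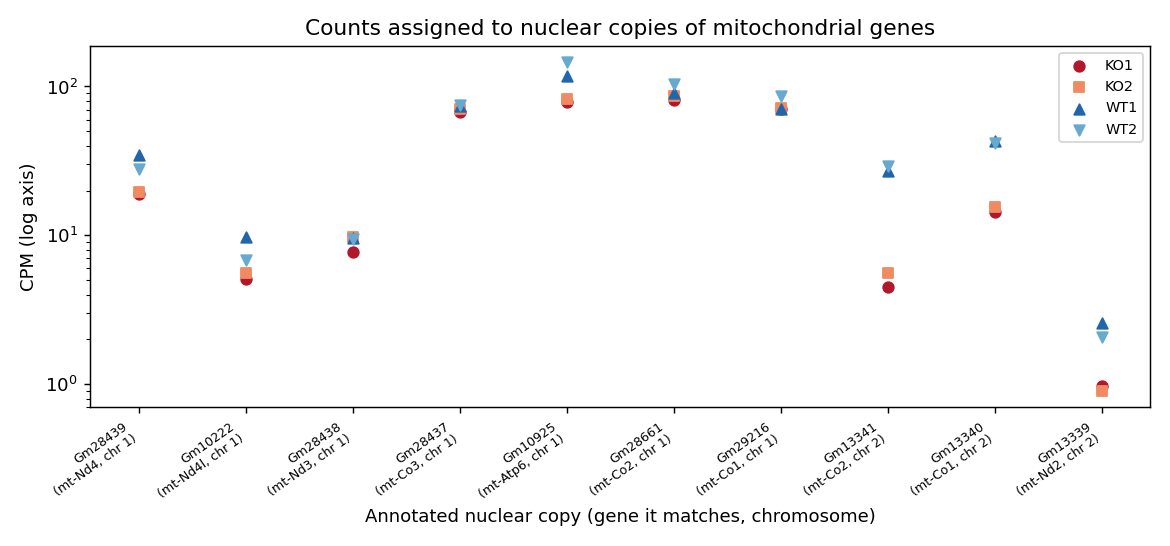
CPM (log axis) of the 10 listed nuclear copies with a mean of at least 10 counts, a point for each library. The matching mitochondrial gene and the chromosome stand under each name. The 3 chromosome 2 copies place both knockouts below both wild types, as in Gm13341 at 4.51 and 5.55 against 27.0 and 29.2 CPM, while in Gm28438 and Gm29216 on chromosome 1 the groups overlap.

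Nuclear genes that transcribe, process, modify or stabilise mitochondrial RNA or maintain its DNA mostly did not pass. Of 62 such genes tested, 2 rose and 1 fell with edgeR, beside 3.51% and 1.94% of all genes, and their median log2 fold change was -0.26 beside -0.02 (-0.09 with the trends removed). The gene Fastk, whose mitochondrial protein isoform is required for the mt-Nd6 mRNA, was at 76.3, 75.4, 32.0 and 22.6 CPM. Both knockouts were higher (log2 fold change 1.48 ± 0.21, edgeR adjusted p = 0.0482, and 0.65 with an adjusted p of 0.0952 with the trends removed). The pseudouridine synthase gene Rpusd3, at 17.2, 16.4, 7.97 and 6.42 CPM, rose as well (1.22 ± 0.20, edgeR adjusted p = 0.0499, and 0.15 with the trends removed). Trnt1, which adds the CCA end to nuclear and mitochondrial tRNAs, fell, at 66.6, 71.9, 126 and 138 CPM (-0.93 ± 0.13, edgeR adjusted p = 0.0482, and -0.39 with the trends removed, adjusted p = 0.159).

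Among the core factors, the mitochondrial DNA packaging and transcription factor gene Tfam stood at 63.0, 63.4, 90.8 and 111 CPM, with both knockouts lower (-0.68 ± 0.15, edgeR adjusted p = 0.0641). Polrmt, the mitochondrial RNA polymerase gene, stood at 57.0, 53.7, 30.3 and 13.0 CPM. Both knockouts were higher, but the wild types differed widely (1.35 ± 0.44, edgeR adjusted p = 0.109, and 0.21 with the trends removed). Lrpprc and Slirp, whose proteins bind together to mitochondrial mRNAs and stabilise them, had fitted changes of -0.47 ± 0.13 and -0.54 ± 0.22. For Mterf3, a regulator of mitochondrial transcription and ribosome assembly, and Pnpt1, a subunit of the mitochondrial RNA degrading complex, they were -0.78 ± 0.24 and -0.69 ± 0.25. None of these 6 core factors passed with edgeR. With the trends removed the log2 fold changes were -0.30 for Tfam, -0.15 for Lrpprc, -0.096 for Slirp, -0.26 for Mterf3 and -0.095 for Pnpt1. By role, the medians were -0.38 for transcription (12 genes), -0.23 for RNA processing (13), -0.52 for RNA stability (9), -0.06 for RNA modification (17) and 0.16 for DNA maintenance (11). With the trends removed the medians were 0.03, -0.16, -0.10, -0.08 and 0.19 in the same order, so the sign for transcription turned.

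The strand results rest on counts assigned by strand. Libraries are reverse-stranded per the labels, and the counting setting was not given in the sources used here. Pdcd2, a nuclear gene chosen after its values were seen, has all of its exon bases covered by exons of Tbp on the opposite strand in GENCODE M21. It still received 1171, 1653, 1272 and 1769 counts. With that annotation, a count without strand that drops shared reads would not give these. However, GENCODE M21 holds 97.5% of the counted identifiers, so the annotation used for counting may differ from it. On the mitochondrial chromosome, a read from a + strand precursor placed on the wrong strand would add to a - strand gene, and the part of such reads was not tested.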

How the data were processed

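Raw read counts per Ensembl gene were deposited by the authors, from STAR 2.4.2a alignment and featureCounts 1.4.5-p1 counting on mm10, per the submitters' processing notes. Of the identifiers, 97.5% are in GENCODE M21 of the same build, from which positions, strands and sequences were taken. Counts of all genes were tested in edgeR 4.0.16 (R 4.3.3): TMM scaling, default expression filter (minimum count 10, minimum total 15), quasi-likelihood fit of group alone, Benjamini-Hochberg adjustment over 17022 genes, threshold 0.05. DESeq2 1.42.0 was an alternative, and offsets removing lowess trends (span 0.3) on GC content and length another. On data simulated for this comparison (16637 genes), 95.9% of 4-fold rises and 78.6% of 4-fold falls were called. So were 11.9% of 2-fold rises, 18.0% of 2-fold falls and 0.0182% of unchanged genes. The simulation gave every gene the same dispersion in both groups, whereas the wild types here differed far more than the knockouts. Its rates may therefore not hold for these data. Library ratios used a prior count of 2 and no test. Named genes were all 37 members, nuclear list genes past the threshold (up to 5 a direction) with 6 fixed factors, nuclear copies averaging 10 counts or more, and Drosha. Members and lists were chosen with earlier results of these data known. Of 64 listed nuclear genes, Prorp and Mpv17 were not matched. Nuclear copies were found by shared 50-base stretches of annotated transcripts, in Python 3.11.15, so unannotated copies are not counted. The list of copies also leaves out a nuclear chromosome and genes absent from the counts. Same-numbered libraries did not deviate together (correlation 0.05), so they were not treated as pairs.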

Additional observations from a re-analysis of the deposited data

How the results depend on the processing

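Counts over all genes depended strongly on the settings: from 597 higher and 330 lower, DESeq2 gave 2051 and 1706, no filter on low counts 1608 and 1055, and the replicate block 1353 and 576. Library totals, upper-quartile scaling, removed GC content and length trends, and these trends with the replicate block gave 0 and 0 with edgeR, at 6116, 6267, 4305 and 3263 genes with an unadjusted p under 0.05 (DESeq2 as above). Leaving out each library in turn gave 0 to 6967 higher and 0 to 6691 lower. Of the members, 2 were called higher with DESeq2 and 2 without the filter (0 to 10 over left-out libraries). Lower calls numbered 2 with DESeq2 and 0 with library totals, upper-quartile scaling, trends removed, and trends with the block (0 to 17 over left-out libraries). The replicate block, for numbers that only name alleles and passages, left the count of members called at 1, mt-Atp8 (edgeR adjusted p = 0.0323).

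Signs turned for 12 of 24 tested members with the trends removed, 14 with the trends and the block, 6 without WT1, 2 without WT2, 1 with library totals and 1 with the block, and in no member under the other settings. Library totals moved the median of all genes from -0.02 to 0.13, and mt-Co2 to 0.01. With the trends removed, and then with the block too, the log2 fold changes were 0.27 and 0.31 for mt-Rnr1, 0.40 and 0.43 for mt-Nd1, 0.18 and 0.23 for mt-Nd2, 0.39 and 0.91 for mt-Tw, 0.28 and 0.29 for mt-Co1, and 0.42 and 0.42 for mt-Co2. They were 0.25 and 0.26 for mt-Co3, 0.02 and 0.078 for mt-Nd4l, 0.23 and 0.24 for mt-Nd4, 0.35 and 0.52 for mt-Nd5, 0.014 and 0.016 for mt-Cytb, and 0.26 and 0.78 for mt-Tt. With trends and block together mt-Rnr2 was at 0.12 and mt-Tl1 at 0.31, and with the block alone mt-Tw at 0.065. Over the left-out libraries, values ran from -1.19 to 0.21 for mt-Rnr2, -1.31 to 0.57 for mt-Tl1, -0.27 to 0.018 for mt-Nd1, -0.94 to 1.14 for mt-Tw, -0.59 to 0.44 for mt-Nd5 and -1.24 to 0.99 for mt-Tt, each highest without WT1. They ran from -0.43 (without WT2) to 2.96 (without WT1) for mt-Ta, and from -0.26 (without WT1) to 0.006 (without WT2) for mt-Co2. No value could be had for mt-Te without KO2, where it did not pass the filter, nor a DESeq2 adjusted p for mt-Te and mt-Ta. The causes were not tested.

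Log2 ratios of shares were -0.14 for all mitochondrial genes, -0.13 for mRNAs, -0.40 for rRNAs, 0.27 for tRNAs, -0.14 for the + strand and 0.85 for the - strand. With the TMM effective library size as denominator they were -0.28 for all genes, -0.27 for mRNAs, -0.28 for the + strand and 0.70 for the - strand. Leaving out each library gave -0.26 to -0.007 for all genes, -0.23 to -0.017 for mRNAs, -0.86 to 0.29 for rRNAs, -0.31 to 1.25 for tRNAs, -0.26 to -0.01 for the + strand and 0.76 to 0.93 for the - strand, whose sign was the same in each. There were 2 libraries a group and 1 an allele, and 13 of 22 tRNAs had too few counts to be tested.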
